A study of Mus musculus with 96 samples.

Results

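Immediate-early genes were followed in single E14 cells, a mouse embryonic stem cell line, with Fos, Fosb, Jun, Junb, Egr1, Atf3, Ier2 and Ier3 as the members. The 8 genes were named by symbol and matched to Ensembl identifiers, and they are 8 of the 36205 gene rows of the count table. Each cell was 1 wild-type E14 cell with a strain background labelled C57BL/6, cultured under serum/LIF conditions (LIF is leukaemia inhibitory factor), whose messenger RNA had been parted from its DNA by G&T-seq and turned into a Nextera XT library. The study set such cells beside their own bisulfite libraries, to link differences in transcription to differences in DNA methylation. Of 76 wells labelled serum/LIF, 61 had a column of counts and are described here. Another 16 wells labelled 2i and 4 empty wells were not analysed here. The labels name no separate cultures, so the cells count as 1 sample of 1 condition, no test between conditions exists, and the values below are descriptions with no p-value.

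Immediate-early genes are switched on within minutes of a growth factor, serum or stress signal, from factors that the cell already holds. Many are read out from the serum response factor and its ETS-family partners, which ERK phosphorylates, and from CREB, and their mRNAs are short-lived. Fos, Fosb, Jun, Junb and Atf3 are leucine-zipper proteins that pair with each other in AP-1 and related dimers, Egr1 is a zinc-finger factor, Ier2 is a small nuclear regulator and Ier3 acts in survival and ERK signalling. In embryonic stem cells ERK signalling, driven largely by autocrine Fgf4, moves cells away from the naive state, and 2i medium blocks it.

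Promoter windows are shown for 4 members, Fos, Junb, Atf3 and Ier3, because Fos with Junb, Junb with Atf3 and Atf3 with Ier3 were among the most correlated pairs, while Fos with Ier3 had a Spearman rho of 0.0760. Each window runs from 250 bases before to 50 bases after the RefSeq gene start (GRCm38.p6), 5′ to 3′ on the gene's own strand, and a window was found for 6 of the 8 members (not Egr1 or Ier2). Capitals mark TGACG (the core of the CREB element), CCAAT and TATAAA on either strand. The windows are chr12:85473640-85473939 (plus strand) for Fos, chr8:84978699-84978998 (minus strand) for Junb, chr1:191183284-191183583 (minus strand) for Atf3 and chr17:35821463-35821762 (plus strand) for Ier3.
Fos: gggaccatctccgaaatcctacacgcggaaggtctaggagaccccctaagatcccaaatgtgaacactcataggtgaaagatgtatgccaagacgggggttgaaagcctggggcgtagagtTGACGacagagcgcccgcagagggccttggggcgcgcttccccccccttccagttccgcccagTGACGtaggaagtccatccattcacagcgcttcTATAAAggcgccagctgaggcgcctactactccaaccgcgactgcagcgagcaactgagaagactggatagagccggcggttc
Junb: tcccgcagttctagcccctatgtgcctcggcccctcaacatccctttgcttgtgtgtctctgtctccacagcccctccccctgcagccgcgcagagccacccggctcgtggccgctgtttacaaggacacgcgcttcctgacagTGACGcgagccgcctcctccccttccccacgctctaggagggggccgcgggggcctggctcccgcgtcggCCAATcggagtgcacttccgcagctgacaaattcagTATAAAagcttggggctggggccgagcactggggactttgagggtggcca
Atf3: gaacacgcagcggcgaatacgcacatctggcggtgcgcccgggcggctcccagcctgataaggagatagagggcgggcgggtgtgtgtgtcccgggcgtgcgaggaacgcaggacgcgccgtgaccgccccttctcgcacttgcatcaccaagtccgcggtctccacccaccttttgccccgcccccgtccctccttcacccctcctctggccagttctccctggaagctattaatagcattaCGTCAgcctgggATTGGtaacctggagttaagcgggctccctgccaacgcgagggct
Ier3: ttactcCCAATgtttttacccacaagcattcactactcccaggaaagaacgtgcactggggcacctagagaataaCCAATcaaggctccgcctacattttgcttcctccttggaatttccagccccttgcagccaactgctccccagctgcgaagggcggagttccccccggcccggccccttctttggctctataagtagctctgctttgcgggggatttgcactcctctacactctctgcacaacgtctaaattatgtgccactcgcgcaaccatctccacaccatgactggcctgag

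TGACG was in 4 of the 6 windows (Fos, Fosb, Junb and Atf3) and in 20.8% of all 32851 promoter windows of this length. In Fos it began 129 and 66 bases before the start, in Junb 106, in Fosb 60 and in Atf3 7 bases before it. CCAAT was in 4 windows (Jun, Junb, Atf3 and Ier3), against 37.4% of all windows, and TATAAA in 2 (Fos and Junb), against 13.6%. In Fos TATAAA began 33 bases before the start, but in Junb it began at the RefSeq start itself, counted as base 1. The GENCODE M21 coordinates used below place the start of Junb further downstream, at 84978718 on the minus strand. The place of TATAAA relative to the start of Junb thus depends on the annotation. The CCAAT of Atf3 lay after the RefSeq start, at bases 6 to 10. Those of the other genes began 36 to 244 bases before theirs. The Atf3 window lies inside the GENCODE M21 span of the gene (191170296 to 191218039, minus strand), not at its 5′ end. Positions in Atf3 therefore hold for the RefSeq start only. The starts of Fosb and Ier3 also differ between RefSeq and GENCODE M21. The GC box GGGCGG was in 5 of 6, Junb being the exception, against 35.7% of all windows. The full CREB element TGACGTCA (1.79% of all windows, and overlapping TGACG), the AP-1 site TGANTCA (7.81%), the Egr1 site GCGTGGGCG (0.612%) and the CArG box bound by serum response factor (1.63%) were in 0 of the 6. Both strands were searched, and these matches describe letters in the window, not bound sites. Bases more than 250 before the start were not searched, nor were Egr1 and Ier2. A value of 0 of the 6 thus does not mean that these genes lack a site.

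The libraries held 2417702 to 6787261 counts per cell (median 4244480) and 5317 to 10032 detected genes (median 8404). The labelled cell type was checked against 9 stem cell markers: Pou5f1, Sall4 and Lin28a were detected in 61 of 61 cells, and the least often detected, Nanog, in 47. Markers of other types differed in how often they were found. Gata4 was found in 2 cells, Sox17 in 1, Sox1, Elf5 and Postn in 0 and Col1a1 in 7. The mesendoderm markers Wnt3 (44 cells) and T (40 cells) and the neurectoderm marker Nes (47 cells) were common. Among other neurectoderm markers, Tubb3 was found in 19 cells, Pax6 in 16 and Neurod1 in 15. The trophectoderm markers Eomes, Tfap2c, Gata3 and Cdx2 were found in 25, 23, 20 and 18 cells. Levels are counts per 1000000 (CPM) after scaling by edgeR's TMM factors, and a gene counts as detected with at least 1 count. Comparisons across genes used the 10868 genes that reached 10 counts in 10 or more cells, the 8 members among them.

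Ier2 was the one member found in every cell, and each of the others was absent from a large share of cells. Ier2 (chromosome 8, 84661331 to 84662852, a gene of 1 exon) was detected in 61 of 61 cells, with a lowest, median and highest level of 4.53, 159 and 819 CPM. No cell lacked it, and its mean was 199 ± 144 CPM (SD, n = 61 cells), with the lowest squared coefficient of variation of the members, 0.524.

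Fos (chromosome 12, 85473890 to 85477273), the founding AP-1 gene, was detected in 37 of 61 cells (60.7%, exact Clopper-Pearson 95% interval 47.3% to 72.9%). Its levels ran from 0 to 681 CPM with a median of 5.71, and the 5 highest cells held 47.8% of its summed level. Fosb (chromosome 7, 19302696 to 19310051), its close relative, was detected in 26 cells (42.6%, 30% to 55.9%) and was low where present, with a median of 14.3 CPM over those cells and a maximum of 95.8 CPM. The intervals of the shares of Fos and Fosb overlap, but both genes were read in the same 61 cells. The overlap therefore does not measure their difference. Fos without Fosb was found in 15 cells and Fosb without Fos in 4.

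Jun (chromosome 4, 95049034 to 95052222, 1 exon), the main AP-1 partner of Fos, was detected in 34 cells (55.7%, 42.4% to 68.5%), with a median of 2.32 and a maximum of 317 CPM over all cells. Without the cells in B10, which had the fewest genes detected, and F07, which had the highest mitochondrial share, the Jun median was 7.42 CPM. It was close to on or off: 32 of these 34 cells had at least 10 counts, and the median over cells with a count was 82.0 CPM. Junb (chromosome 8, 84974484 to 84978718) was detected in 44 cells (72.1%, 59.2% to 82.9%), with a median of 33.1 and a maximum of 241 CPM. Its exons share 173 bases with the opposite-strand gene Prdx2, a peroxiredoxin found in 61 of 61 cells at a median of 1114 CPM, and with strand use not given in the sources used here the Junb counts are uncertain. Prdx2 and Junb had a Spearman rho of 0.00615 over the 61 cells, and in the 17 cells with 0 Junb counts Prdx2 had a median of 1157 CPM.

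Egr1 (chromosome 18, 34859823 to 34864984), the ERK-responsive zinc-finger gene, was detected in 43 cells (70.5%, 57.4% to 81.5%), with a median of 19.3 and a maximum of 483 CPM. Atf3 (chromosome 1, 191170296 to 191218039), a stress-induced repressor of the ATF family, was detected in 23 cells (37.7%, 25.6% to 51%), with a median of 0 and a maximum of 284 CPM. Ier3 (chromosome 17, 35821684 to 35822923) was the rarest, in 19 cells (31.1%, 19.9% to 44.3%), with a median of 0 and a maximum of 375 CPM in the cell of well E07, which alone held 38.8% of its summed level. The intervals cover the counting of cells only. Coordinates are GENCODE M21 on GRCm38, the build named in the submitters' processing notes.

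**Figure D1:**
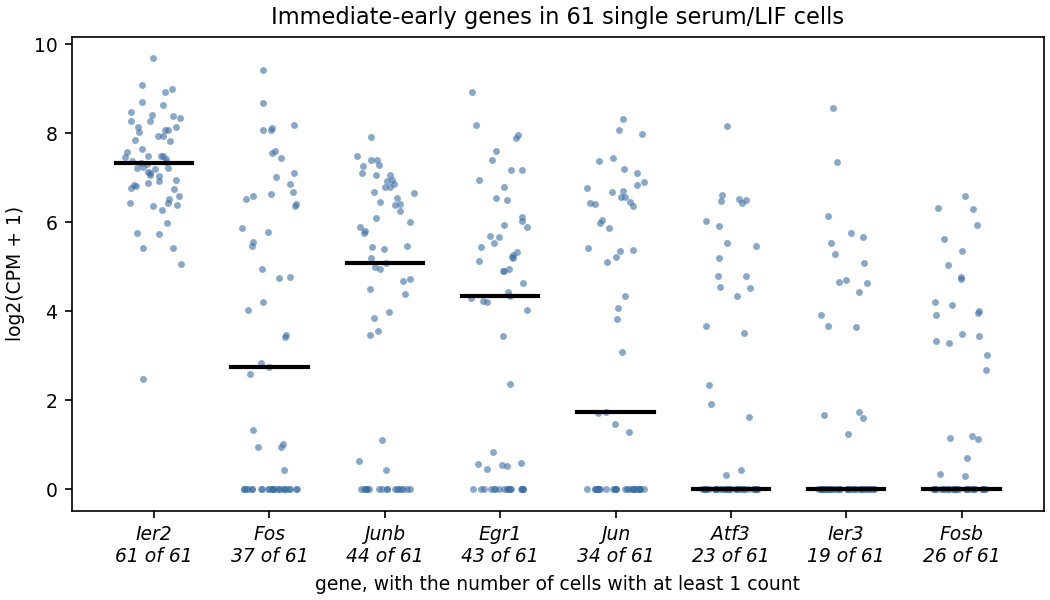
Level of each immediate-early gene in each of 61 serum/LIF cells, as log2(CPM + 1) on the vertical axis, with 1 point per cell and a black bar at the median. Ier2 lies above 0 in 61 cells, while Atf3, Ier3 and Fosb have their median at 0.

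Levels of different genes were set side by side per kilobase of exon, taken over all annotated transcripts of a gene. Ier2 led with a mean of 131 ± 94.8 CPM per kilobase (SD, n = 61 cells here and below). Fos followed with 28.1 ± 51.6, Junb with 23.9 ± 26, Jun with 15.2 ± 22.7, Ier3 with 14 ± 46.9, Egr1 with 11.6 ± 19.4 and Atf3 with 8.60 ± 20.4 CPM per kilobase. Fosb was last with 1.62 ± 3.38 CPM per kilobase. Ier2 and Fos differed by more than the larger of their SDs, and each other pair of neighbours in this order by less. By medians the order after Ier2 (104 CPM per kilobase) was Junb (14.4), Egr1 (4.31), Fos (2.43) and Jun (0.728), with 0 for the others, so the place of Fos rests on its few highest cells.

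**Figure D2:**
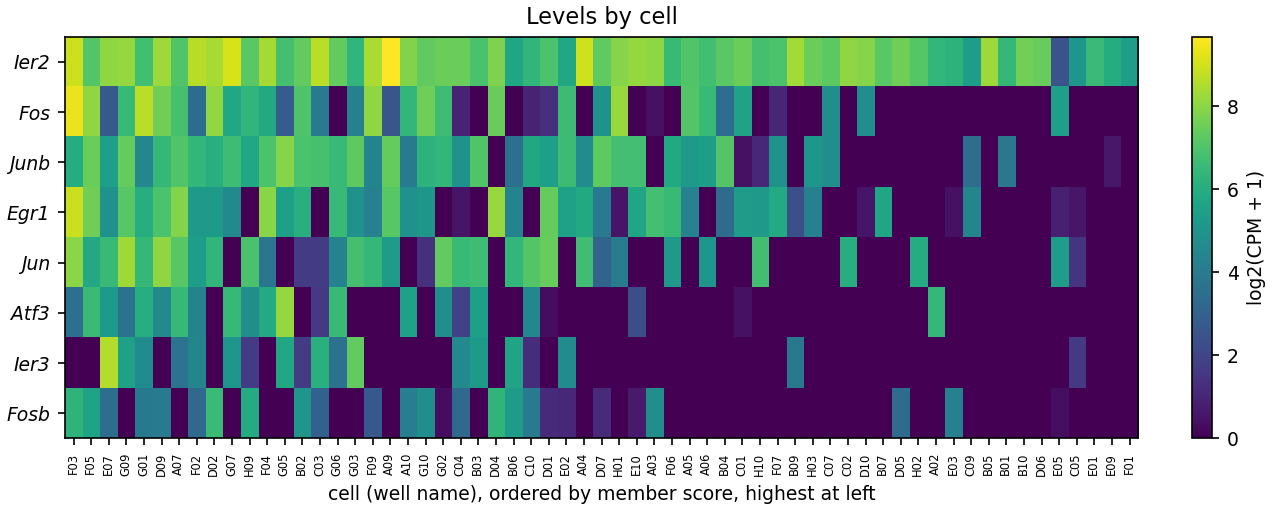
Levels of the 8 genes (rows) in the 61 cells (columns, by well name), coloured by log2(CPM + 1), with cells ordered by the mean z-score of the 8 genes, highest at left. Ier2 is present throughout, while the other genes thin out towards the right.

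Cells differed in how many members they held, from 1 to 8. All 8 members were detected in 4 cells (C04, E07, F02 and G01), and 13 cells held 6 of them, the most common number. Ier2 alone was detected in 5 cells, B05, B10, D06, E01 and F01. These 5 had 5317 to 8465 detected genes and the 4 cells with all members 8581 to 10032, so the extreme cells differed in genes detected. Other cells did not keep this order: F03 held 7 members with 8036 detected genes and C09 held 3 with 8984. The part of gene detection in the number of members was not tested. Total counts did not separate the extreme cells in the same way. They were 3134594 to 5054247 in the cells with Ier2 alone and 3127482 to 4292762 in the cells with all members.

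The highest cells were different for different members. The cell in F03 had the highest Fos (681 CPM) and Egr1 (483 CPM), with Jun at 253, Fosb at 77.2 and Ier2 at 485 CPM, yet it had no Ier3 count and 10.5 CPM of Atf3. Its summed member level of 2053 CPM stood against a median of 338 CPM over the cells. G05 had the highest Atf3 (284 CPM) and Junb (241 CPM) with 0 counts of Jun and 6.1 CPM of Fos. Fosb peaked in D02 and Jun in G09, while Ier3 peaked in E07 and Ier2 in A09. D04 had 288 CPM of Egr1, 173 CPM of Fos and 79.2 CPM of Fosb with 0 counts of Jun, Junb, Atf3 and Ier3. The lowest summed level, 36.8 CPM, was in C05.

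Cell-to-cell variability was set against expression with the squared coefficient of variation (CV2) and the trend that modelGeneCV2 fits to it over the 10868 genes. Fos had a CV2 of 3.37, a ratio to the trend of 4.31, at percentile 97.7 of all these genes. Ier3 had a ratio of 4.25 (percentile 97.6) and Egr1 one of 2.97 (percentile 92.0), so 3 of 8 members lay in the top 10% of ratios. Atf3 (2.46, percentile 85.4) and Jun (2.23, percentile 80.4) came next. Junb (1.32), Ier2 (1.35) and Fosb (1.08) lay at percentiles 45.5, 47 and 34.9, near the middle or below it.

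The ratios were also taken with 1 cell left out for each member. Without the member's own highest cell, Ier3 had a ratio of 1.63 (percentile 58.7, without E07) and Atf3 one of 1.28 (percentile 44.4, without G05). Fos without F03 kept a ratio of 3.07 (percentile 92.7) and Egr1 without F03 one of 2.12 (percentile 77.5). Jun without G09 had one of 1.97 (percentile 72.6). Fos was thus the 1 member that stayed in the top 10% without its highest cell. The cell left out was always the one highest for the member, while the other genes did not each lose theirs. A fall in ratio and percentile was therefore favoured in advance, so these percentiles are no even ranking against other genes.

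**Figure D3:**
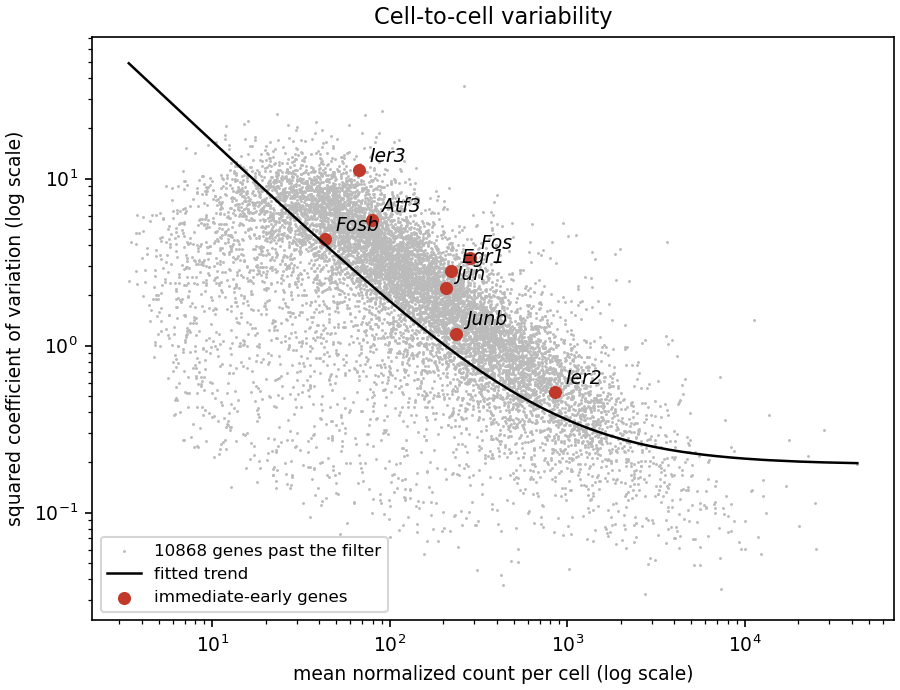
Squared coefficient of variation against mean normalized count per cell, both on log scales, for 10868 genes (grey), with the fitted trend (line) and the 8 immediate-early genes (red). Fos and Ier3 lie farthest above the trend, with ratios of 4.31 and 4.25.

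Members varied together, though loosely. Of the 28 pairs, 27 had a positive Spearman rho over the 61 cells, with a median of 0.267, against a median of 0.0138 over all pairs of kept genes. A rho above 0.3 was reached by 11 of 28 pairs, against 2.02% of all pairs of kept genes. Pairs share genes and cells share 1 culture and its spread in depth and detection, so these counts are not independent. With the share of genes detected regressed out, the median over pairs was 0.234.

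The most correlated pair was Fos with Junb (rho = 0.491 over 61 cells, Pearson's r = 0.487), which were both detected in 33 cells and both absent from 13. Junb with Atf3 had a rho of 0.466, and of the 23 cells with Atf3, 22 also had Junb. Fos with Fosb had 0.453, with Fosb found in 22 of the 37 cells with Fos and in 4 of the 24 cells without it. Atf3 with Ier3 had 0.440, Junb with Egr1 0.423, Jun with Junb 0.408 and Fos with Egr1 0.402. Jun and Fos themselves, the classical AP-1 pair, had a rho of 0.330 and were both detected in 25 cells. The rho of Jun with Junb ranged from 0.111 to 0.597 over 8 other choices of cells or scaling, while that of Fos with Junb ranged from 0.312 to 0.531.

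Other pairs showed little relation. Ier3 had a rho of 0.0760 with Fos (-0.103 to 0.165 over the 8 other choices) and 0.0796 with Egr1, although it had 0.396 with Junb and 0.304 with Jun. Fosb with Junb had 0.106. Ier2, the ubiquitous member, had its highest rho with Fos (0.271) and its lowest with Ier3 (-0.0442, and 0.119 in plate rows E to H). A weak rho between sparse genes is no finding in either direction. Junb thus had a rho above 0.3 with 5 of the other members, and Ier2 with 0.

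**Figure D4:**
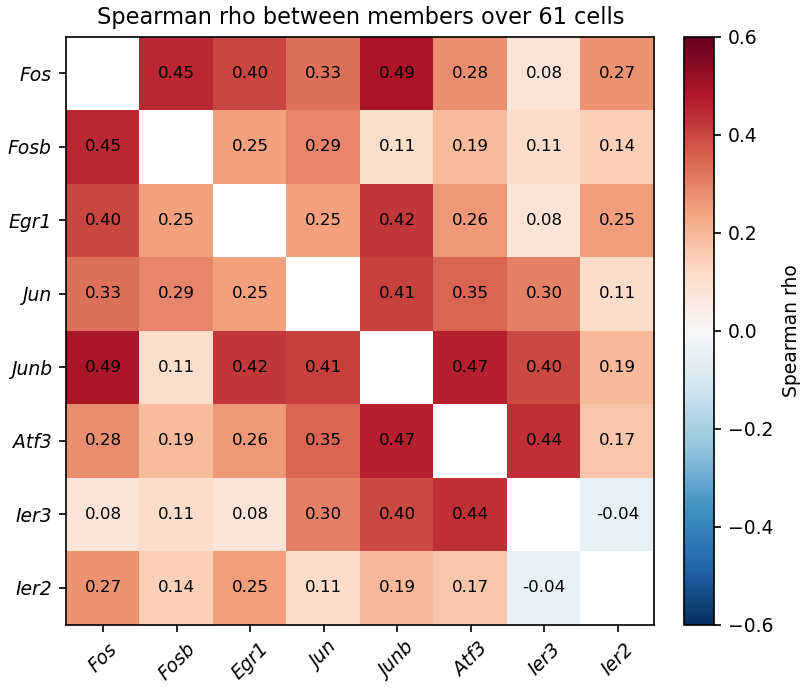
Spearman rho between each pair of immediate-early genes over 61 cells, with colour and printed value. Junb has printed values of 0.40 or more with Fos, Egr1, Jun, Atf3 and Ier3, while Ier3 is near 0 with Fos and Egr1.

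A member score, averaging each cell's z-scores of the 8 genes on the log2(CPM + 1) scale, was used to describe what else moved with them. The score ran from -1.02 in F01 to 1.2 in F03. It had a rho of 0.349 with the share of genes detected, -0.113 with total counts and -0.0322 with the mitochondrial share. Cells in plate rows E to H had a higher median score than those in rows A to D (0.277 over 28 cells against -0.168 over 33 cells). Likewise the median in rows E to H was 13.7 CPM for Fos, 60.8 for Junb, 27.7 for Jun and 32 for Egr1, against 0.926, 14.8, 0 and 9.80 CPM in rows A to D. Ier2 had 143 CPM in rows E to H and 171 CPM in rows A to D. The labels give plate rows only as well names, and the part of plate position in the values was not tested.

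Other immediate-early genes moved with the score. Of 41 listed genes 31 passed the filter, and the mean z-score of these had a rho of 0.642 with the member score over 61 cells (Pearson's r = 0.630). Single genes of the list had a median rho of 0.288, against 0.0526 over all kept genes. A rho above 0.3 was reached by 15 of 31, against 9.34% of all kept genes, and one below -0.3 by 0, against 4.5%. The rho of the list was 0.800 in plate rows E to H and 0.442 in rows A to D, where the ERK feedback and target genes described below had 0.501.

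Klf6, a Kruppel-like factor gene found in 61 cells at a median of 201 CPM, had the highest rho of this list, 0.66. Dusp1, a phosphatase that switches off MAP kinases, and Ccn1, a matricellular gene, had 0.57 each, and Zfp36, whose product destabilises mRNAs, had 0.54. Other members of the list with high expression did not follow, such as Mcl1 (rho = -0.03), a survival gene with a median of 199 CPM, and Sgk1, a kinase gene with -0.30. Of the 10 genes that failed the filter, Nr4a3 and Npas4 had no count in any cell, and Egr2, Egr3 and Egr4, the relatives of Egr1, were found in 3, 1 and 2 cells.

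The members did not follow this list alike. Atf3 had a rho of 0.70 with it, Junb 0.57, Ier3 0.55 and Jun 0.49. Fos had 0.37 and Egr1 0.26, and Fosb had 0.13 and Ier2 0.17. With the mesendoderm list Egr1 had 0.52, Fos and Junb had 0.41 each, Ier2 had 0.30 and Ier3 had 0.06. In the 49 cells below the gap of the naive score, described below, these values were 0.42 for Egr1, 0.40 for Ier2, 0.23 for Fos, 0.21 for Junb and -0.06 for Ier3.

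**Figure D5:**
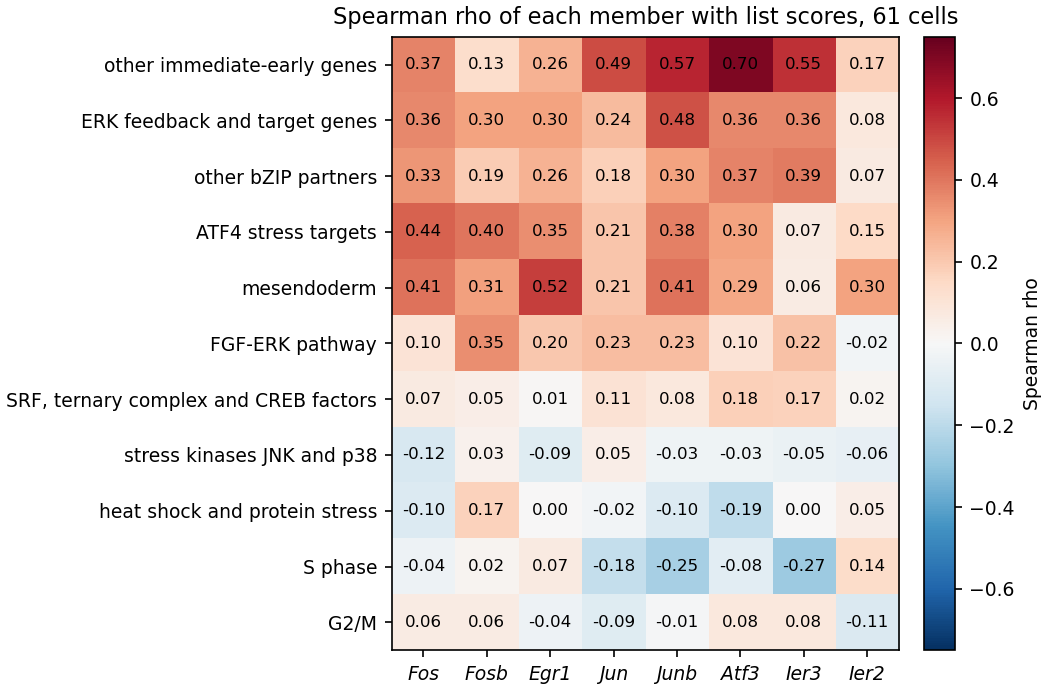
Spearman rho of each immediate-early gene (columns) with the score of each gene list (rows) over 61 cells, with colour and printed value. Atf3 has 0.70 with the other immediate-early genes and Egr1 has 0.52 with the mesendoderm list, while the heat shock, kinase and cell cycle lists stay within 0.27 of 0.

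ERK feedback and target genes moved with the score too, with a list rho of 0.514 over 61 cells and 5 of 13 genes above 0.3 (background 9.34%). These were the MAP kinase phosphatase genes Dusp4 (0.50) and Dusp6 (0.49), Spred1 (0.45), Phlda1 (0.38) and Il17rd (0.36), known to damp or follow ERK signals. The ERK targets Etv1 (-0.11), Etv4 (-0.15, and -0.31 in the 49 cells) and Etv5 (-0.14) and the inhibitor gene Spred2 (-0.08) had negative values. Spry2, an inhibitor of receptor tyrosine kinase signalling found in 60 cells, had 0.09. The genes of the FGF and ERK pathway itself, from ligand to kinase, had a list rho of 0.325, or 0.191 with the share of genes detected regressed out. Among them 2 of 23 were above 0.3, a share near the background of 9.34%. They were Nras (0.40), a RAS gene, and the ligand gene Fgf8 (0.31), which is also in the mesendoderm list.

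Among the transcription factors that induce immediate-early genes, the list of serum response factor, ternary complex and CREB factors had a rho of 0.101, with 1 of 11 genes above 0.3, a share near the background of 9.34%: Mrtfb (0.34), a coactivator of serum response factor. Ep300 (-0.19) and Atf1 (-0.22) were negative. Stress kinase genes of the JNK and p38 pathways had -0.0665, with Mapkapk2 at 0.37 and Map2k3 at -0.39. The heat shock list had -0.0351, with 1 of 13 genes above 0.3 (background 9.34%), the heat shock factor gene Hsf1 (0.37, and 0.43 in the 49 cells defined below). Its chaperone genes went both ways: Hspa5 had 0.29, Hsph1 -0.30, Hspe1 -0.29, Hspd1 -0.28 and Hsp90ab1 -0.28, and Hsp90aa1 had -0.21 over all cells and 0.04 in the 49 cells. The list of other bZIP partners, which shares Jund, Fosl1, Fosl2, Maff and Cebpb with the immediate-early list, had 0.442. Above 0.3 were 3 of its 16 kept genes (background 9.34%), Jund (0.35), Fosl2 (0.32) and Maff (0.31), all of them shared with that list. In the 49 cells 0 of the 16 were above 0.3 (background 5.52%). ATF4 stress targets had 0.455, with 1 gene of 9 above 0.3, a share near the background of 9.34%. That gene was the cystine transporter gene Slc7a11 (0.55), while Asns (-0.04) and Psat1 (-0.05), enzymes of amino acid synthesis, were near 0. That list shares Atf4 and Ddit3 with the bZIP list. The cell cycle lists were near 0 over 61 cells, where S-phase genes had -0.156 and G2/M genes -0.00746, with 0 of 20 genes above 0.3 in each. Of the 20 S-phase genes 1 was below -0.3, a share near the background of 4.5%, the replication helicase gene Mcm5 (-0.34).

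The naive pluripotency list had a rho of -0.381 with the member score over 61 cells, with 8 of 15 genes below -0.3 (background 4.5%). The naive score had its largest gap, 0.331, between 49 cells below and 12 above, with a second gap of 0.296 among the 12, so the split is not a clean one. Within the 49 cells the rho was -0.0391 and within the 12 cells 0.252. The sets were cut on the naive score itself, which narrows its range in each set. These values therefore cannot show whether the relation over all cells holds within a set. Single naive genes in the 49 cells included the pluripotency factor gene Klf2 (-0.25), Dppa5a (-0.33), Zfp42 (-0.17), Dppa4 (-0.11) and Nanog (0.01). Of the 15 naive genes 1 was above 0.3 there, Sox15 (0.39), a share near the background of 5.52%. Klf4 and Klf5 had 0.17 each. Mesendoderm genes had a list rho of 0.538 over all cells and 0.329 in the 49 cells, and 4 of 6 genes were above 0.3 over all cells (background 9.34%), but 1 of 6 in the 49 cells (background 5.52%). Wnt3, a Wnt ligand gene active at the primitive streak, had 0.67 over all cells and 0.51 in the 49 cells, against 0.30 and 0.09 for T.

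The other lists were also read within the 49 cells, where 5.52% of kept genes had a rho above 0.3. There the other immediate-early genes had a list rho of 0.601 with 12 of 31 genes above 0.3, and the ERK feedback and target genes 0.320 with 3 of 13. S-phase genes had -0.347 there, against 0.699 in the 12 cells above the gap, whose number is too small to read further.

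Markers of cell types were also set against the score, and some of them repeat genes of the lists above. The 6 mesendoderm markers are all in the mesendoderm list, as are Eomes and Cdx2 of the trophectoderm markers. Nanog and Dppa5a of the stem cell markers are also in the naive list. The summed level of the 9 stem cell markers ran from 448 to 14729 CPM over cells and had a rho of -0.550 with the score. The mean z-score of these markers had -0.428 over all cells and -0.340 in the 49 cells. Of the 9, 3 were below -0.3 (background 4.5%): Dppa5a (-0.54), which alone reached 11294 CPM, Sox2 (-0.40) and Sall4 (-0.35). Lin28a (-0.005) and Tdgf1 (0.02) were near 0. The summed level of the 6 mesendoderm markers ran from 0 to 4529 CPM with a rho of 0.551, and that of the 6 primitive endoderm markers from 0 to 213 CPM with 0.357. Dab2 was found in 20 cells, while Gata4, Gata6, Sox17, Foxa2 and Pdgfra were each found in 1 to 3 cells. The summed neurectoderm markers had 0.312, but their mean z-score had 0.021: Nes had 0.49, while Pax6 (-0.08), Neurod1 (-0.14) and Tubb3 (-0.26) were negative, and Sox1 and Hes5 had no count. The summed trophectoderm markers had 0.209 (0.267 as a mean z-score) and the summed fibroblast markers 0.178, with Postn at 0 in all cells. Their part in the values of the immediate-early genes was not tested.

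Outside the lists, the genes with the highest rho with the score had 0.65 to 0.69. These genes and the lowest ones were picked by this same rho. The median of 0.0526 over all kept genes is therefore no yardstick for them. Ahnak, a giant scaffold protein gene, had a rho of 0.69 (0.60 in the 49 cells), Igfbp3, an insulin-like growth factor binding protein gene, 0.69 (0.56), the S100 gene S100a11 0.68 (0.57) and the clusterin gene Clu 0.68 (0.55). The myosin light chain gene Myl12a had 0.68, Tceal7 0.67, the matrix gene Efemp1 0.67, the tropomyosin gene Tpm1 0.65 and the collagen chaperone gene Serpinh1 0.65. At the other end were the mitochondrial protein gene Chchd10 (-0.71), Gm867 (-0.69), the glutathione transferase gene Gsta4 (-0.66), the pseudogene Gm10039 (-0.62) and Gm10324 (-0.61).

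The gene most like each member differed from member to member. Over all 10868 kept genes, a gene's highest rho with any other had a median of 0.525 and quartiles of 0.490 and 0.592, against which the members' values are read. Junb was most like Rnf128 (0.703), a ubiquitin ligase gene, then Csrp1 (0.665) and Clu (0.655). Atf3 was most like Klf6 (0.667), Sfn (0.666) and Ahnak (0.623), and Fos was most like Clu (0.624), Anxa3 (0.570) and H2-Q4 (0.556).

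Ier3 was most like Hbegf (0.597), an EGF-family ligand gene, with Llgl2 (0.581) and the small Maf gene Maff (0.535) next, and Hbegf and Maff were themselves found in 26 and 17 cells. For these 4 members the highest rho lay above the upper quartile of all genes. Jun was most like Setd7 (0.586), Cd151 (0.551) and Bhlhe40 (0.505). Egr1 was most like Txndc5 (0.572), Sfmbt2 (0.546) and Cldn6 (0.522). Fosb was most like the POU factor gene Pou3f1 (0.560), Scml2 (0.497) and Trim67 (0.497). Ier2 had the lowest of these values, 0.499 with Espn, then Immp1l (0.476) and Gm28048 (0.461), and no member had another member among its 3 most alike genes.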

How the data were processed

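Counts per gene, as whole numbers, were deposited by the authors for 36205 Ensembl rows and 95 spike-in names. The tools named with build GRCm38, per the submitters' processing notes, include GSNAP, SAMtools 0.1.18, DESeq2 and bedtools 2.19.1. Counting rule, annotation release, strand use: not given in the sources used here. Spike-in rows (14 counts in all) were left out. The deposited normalized table was not used here. No molecular identifiers are named, so intervals cover counting error only, and no doublet caller was run on the wells. Pairs of cells had a Pearson's r of 0.369 to 0.613, so none looked like 1 library deposited more than once.

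CPM used TMM factors from edgeR 4.0.16, and logs a pseudocount of 1. CV2 trends came from modelGeneCV2 in scran 1.30.0. DESeq2 1.42.0 gave alternative size factors. Spearman's rho, exact Clopper-Pearson intervals and figures were made in Python 3.11.15 with scipy 1.17.1. Procedures were checked on simulated counts. Lists with fewer than 3 kept genes were not scored. The members, gene lists and alternatives were chosen with earlier results of these data known, and the rho limit of 0.3, the plate rows for lists and the sets of the naive score after the values were seen.

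Genes were named by rule: the 8 members, in each list from the 3 kept genes with the highest median level and the 3 with the largest absolute rho with the score (not all of these are printed), outside the lists the 10 highest and 5 lowest, and the 3 genes most like each member. A gene among the highest is not reported here. Further list genes (above the limit, without counts or as cell type markers) and Prdx2 were named after their values were seen. Promoter sequences and gene starts are from RefSeq on GRCm38.p6.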

Additional observations from a re-analysis of the deposited data

How the results depend on the processing

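Median levels depended on which cells were used. The Jun median of 2.32 CPM was 7.42 without B10 and F07, 27.7 in plate rows E to H and 0 in rows A to D, and the Fos median of 5.71 CPM was 13.7 in rows E to H and 0.926 in rows A to D. Detection stayed within its exact interval under both alternatives run. With at least 10 counts, detection ran from 27.9% of cells (Ier3) to 100% (Ier2). The median rho over member pairs ranged from 0.197 to 0.289 over 8 alternatives, and the pairs above 0.3 numbered 9 to 13. The ratio of CV2 to its trend was 1.71 for Fosb, 3.70 for Atf3 and 6.50 for Ier3 with no filter on low counts. Without the member's own highest cell it was 1.28 for Atf3 and 1.63 for Ier3. Regression on the share of genes detected gave the member score a rho of 0.191 with the FGF and ERK pathway, -0.121 with serum response and CREB factors, 0.288 with other bZIP partners, -0.175 with heat shock genes, 0.301 with ATF4 targets, -0.289 with S-phase genes and -0.143 with G2/M genes. DESeq2 size factors gave 0.10 with heat shock genes. In the 49 cells below the gap of the naive score, rho was 0.320 with ERK targets, 0.136 with the FGF and ERK pathway, -0.0279 with serum response and CREB factors, 0.298 with ATF4 targets, -0.0391 with naive genes, 0.329 with mesendoderm genes, -0.347 with S-phase genes, 0.164 with the share of genes detected and 0.192 with the mitochondrial share. For the other immediate-early genes it was 0.800 in plate rows E to H and 0.442 in rows A to D. The cause of these differences was not tested. A move was counted where it passed 1.5 times for a ratio or 0.129 for a rho, the SD that a rho over 61 cells has with no relation. In smaller sets of cells a rho spreads more, and these sets are parts of the full set. A counted move there thus does not mean a shift beyond that spread. No paired analysis was possible because cells of 1 condition were analysed and no test was run.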
